A study of Mus musculus with 24 samples.

Results

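Loss of Cthrc1 was tested for an effect on how the mouse aorta responds to Ang-II/BAPN. For each gene, the change from PBS to Ang-II/BAPN in wild type libraries was subtracted from the same change in knockout libraries. This genotype by treatment interaction is given as a log2 value, averaged over 2 sets of libraries. A positive value means that the transcript stood higher in treated knockout aorta, relative to its own PBS group, than it did in treated wild type aorta. All 24 libraries with labels entered, which is every library of the series used here, and 24623 of the 40141 genes in the table passed a filter on low counts.

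The groups were Cthrc1-/- mice given Ang-II/BAPN, Cthrc1-/- mice given PBS, wild type mice given Ang-II/BAPN and wild type mice given PBS, with 6 aorta libraries each. Within each group, 3 libraries have a title that starts with F (the F set) and 3 have a title that does not (the plain set). The labels used here say neither what F stands for nor the strain, age, allele, dose, treatment time or hour of tissue collection. They also do not say whether libraries come from separate animals, and p-values therefore reflect no more than the spread among these libraries, part of which may be technical.

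Ang-II is angiotensin II, a peptide that raises blood pressure and acts directly on the vessel wall, and BAPN (β-aminopropionitrile) blocks lysyl oxidases, the enzymes that form cross-links between elastin and between collagen molecules. Given together they weaken the wall, and the combination is used in mice to bring about aortic dissection. The product of Cthrc1 is secreted by activated fibroblasts and by cells of injured arteries. The media of the aorta is built of smooth muscle cells, whose contractile proteins are under the control of serum response factor and myocardin, and these proteins are typically lost when the wall is injured.

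Some libraries stood apart in ways that touch the results. As markers of the labelled tissue, Acta2 and Myh11 of smooth muscle were abundant in every PBS library, at 6279 CPM or more for Acta2 and 2979.9 CPM or more for Myh11. Total counts ran from 39002000 to 82040700 per library, and mitochondrial genes took 9.59 to 31.9% of them. Transcripts of intestine and liver were abundant in 4 of the 6 treated wild type libraries, and markers of B and plasma cells in 3 of these 4 and in 1 other, as described below. Transcripts of pancreas were abundant in knockout libraries instead, all 3 of the treated plain set and 2 given PBS. Rn7sk, a small nuclear RNA, exceeded 2 CPM in 5 libraries, and Hbb-bs, a haemoglobin gene, reached 22126 CPM in replicate 1 of the treated wild type F set. CPM of single genes are counts scaled to a common library size with TMM, which corrects for differences in library composition. The values of Rn7sk, Hbb-bs, Xist and Ddx3y given here, and summed levels of gene lists, are scaled to total counts without TMM. Xist, which is transcribed from the inactive X, was at 188 CPM or more in every library of the F set and at 14.5 CPM or less in every library of the plain set. The Y-linked transcript Ddx3y ran the opposite way, with at most 1.32 CPM in F libraries and at least 43.5 CPM in plain libraries. By these transcripts, F libraries had a female pattern and plain libraries a male one. The title sets averaged and compared below thus differ in this sex pattern.

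Cthrc1 itself (chr15:39076932-39087121, plus strand, build GRCm38, ENSMUSG00000054196) stood lower in every knockout library than in any wild type library of the same treatment. Its lowest, median and highest levels were 1.79, 4.56 and 10.5 CPM in treated and 0.165, 0.396 and 0.547 CPM in PBS knockout aorta, against 26.5, 60.4 and 112 CPM in treated and 1.52, 1.71 and 2.47 CPM in PBS wild type aorta. The difference between genotypes was -3.83 under Ang-II/BAPN (adjusted p = 0.000491) and -2.35 under PBS (adjusted p = 0.180). No library went against its genotype label, but the labels used here do not say which part of the gene was deleted. Counts over Cthrc1 still rose on treatment in knockout aorta, by 3.71 on the log2 scale (adjusted p = 2.27e-05), against a rise of 5.19 in wild type aorta (adjusted p = 8.06e-07, edgeR). Its interaction value was -1.48 (SE 0.56, adjusted p = 0.267).

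No gene passed the interaction test. With edgeR's quasi-likelihood test and Benjamini-Hochberg adjustment over all tested genes, 0 of 24623 genes (0%) had an adjusted p under 0.05, and the lowest adjusted p was 0.111. At an unadjusted p under 0.05 there were 3132 genes (12.7%), of which 1534 (6.23%) had a positive and 1598 (6.49%) a negative value. DESeq2 on the same counts called 591 genes (2.4%), 249 with a positive value (1.01%) and 342 with a negative one (1.39%). It gave no adjusted p for 2424 genes. The negative calls include 9 of 11 intestine, 4 of 6 liver, 1 of 8 kidney and 1 of 6 pancreas markers, and the positive calls 0 of these. What follows is therefore a description of values that the main test did not call, set beside the changes within each genotype and treatment that it did call.

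The simple comparisons differed in their numbers of calls. Treatment changed 2813 genes in knockout aorta (11.4%, with 7.03% up and 4.4% down) and 6097 genes in wild type aorta (24.8%, with 13.3% up and 11.5% down). Knockout and wild type aorta differed in 1510 genes under Ang-II/BAPN (6.13%, with 4.26% higher and 1.87% lower in knockout) and in 0 genes (0%) under PBS. Of that last comparison, 954 genes (3.87%) had an unadjusted p under 0.05. These shares of all tested genes are the background for the counts within gene lists below. Among the 1534 genes with a positive interaction value at an unadjusted p under 0.05, the difference between genotypes was larger in size under Ang-II/BAPN for 1448 and under PBS for 86. Its median size was 0.97 under Ang-II/BAPN and 0.14 under PBS on the log2 scale. The response was the larger one in knockout aorta for 252 of these genes and in wild type aorta for 1282, so that most of them moved less in treated knockout than in treated wild type aorta. Among the 1598 genes with a negative value at that p, the difference between genotypes was larger under Ang-II/BAPN for 1198 and under PBS for 400, and the response was larger in knockout aorta for 684 and in wild type aorta for 914. Over all tested genes, the difference was larger under Ang-II/BAPN for 17777 and under PBS for 6846. The response over all tested genes was larger in knockout aorta for 8535 and in wild type aorta for 16088. Abundant genes leaned to positive values: of 1501 genes above 100 CPM, 268 had a positive and 36 a negative value at that p, against 272 and 611 of the genes between 1 and 10 CPM.

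**Figure D1:**
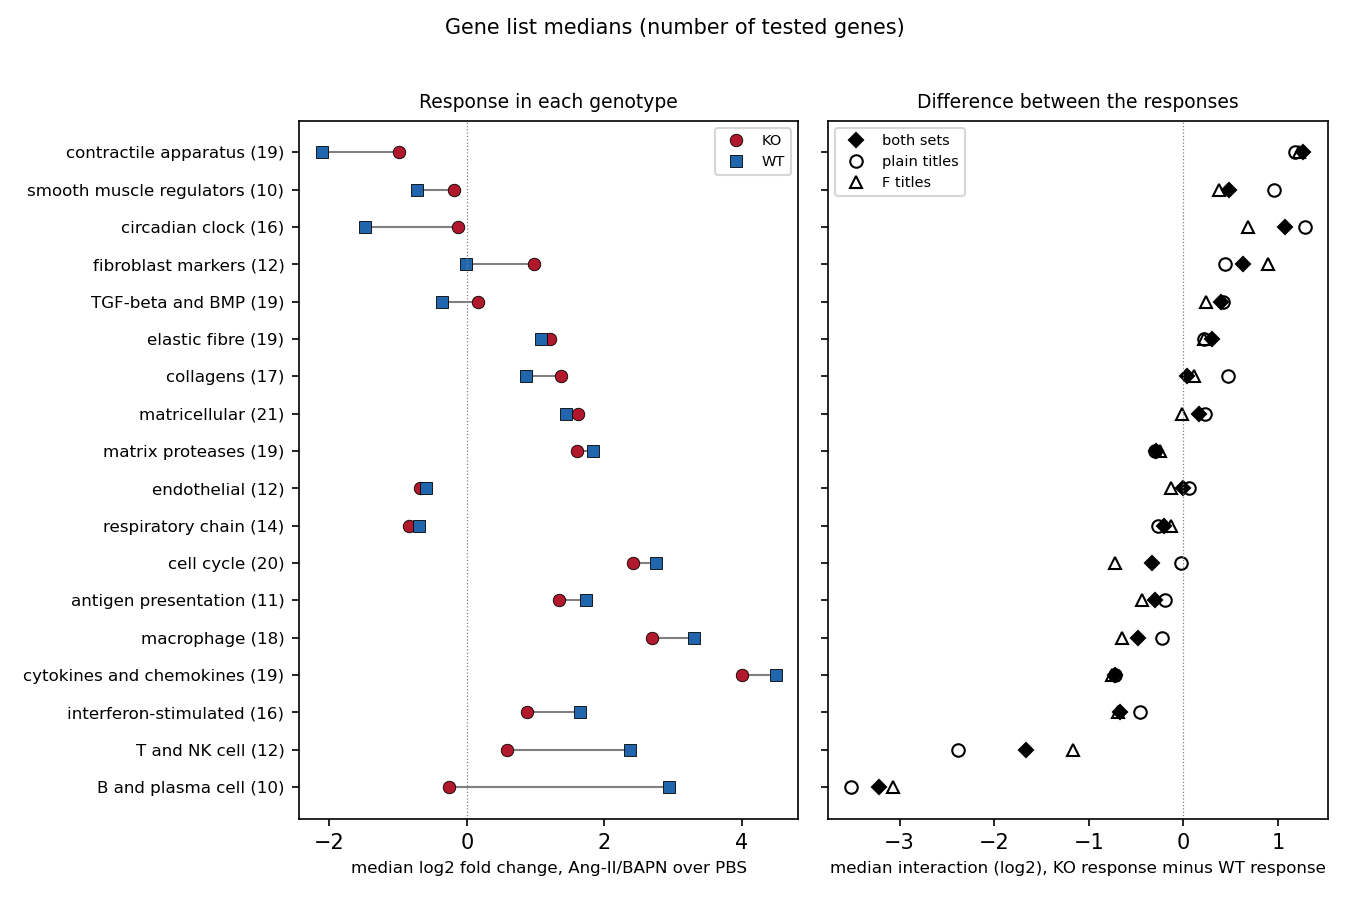
Median response to Ang-II/BAPN over PBS (left, log2, knockout circles and wild type squares) and median interaction (right, log2, both title sets, plain titles and F titles) for 18 gene lists, with the number of tested genes in brackets. The contractile list sits at 1.26 in the right panel with both title sets close together, and the B and plasma cell list at -3.22.

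Genes of the contractile apparatus held more of their level in treated knockout aorta than in treated wild type aorta. Of 19 listed genes, all tested, 18 had a positive interaction value, where 48.2% of all tested genes did, and 17 were positive in both title sets, where 26% of all genes were. Their median was 1.26, against -0.03 for all genes, with 1.18 in the plain and 1.22 in the F set. At an unadjusted p under 0.05, 16 were positive and 0 negative, and DESeq2 called 4 (Smtn, Lmod1, Pln and Tpm1). The treatment lowered 10 of the 19 in knockout aorta (median -0.98) and 18 of the 19 in wild type aorta (median -2.11). Under Ang-II/BAPN 13 of them were higher in knockout than in wild type aorta, with a median difference of 1.26, and under PBS 0 differed, with a median of -0.02.

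Single genes show the same order of the groups. Acta2, the smooth muscle actin (chr19:34241090-34255590, minus strand), had lowest, median and highest levels of 3486, 5053 and 6905 CPM in treated and 6279, 7628 and 16968 CPM in PBS knockout aorta, against 909, 2201 and 2883 CPM in treated and 7498, 9246 and 12036 CPM in PBS wild type aorta. All 6 treated knockout libraries lay above all 6 treated wild type libraries, while the PBS groups overlapped. Its interaction value was 1.26 (SE 0.46, adjusted p = 0.244), from a change of -0.98 in knockout aorta (adjusted p = 0.0555), which missed the threshold, and a called fall, -2.24, in wild type aorta (adjusted p = 7.28e-05).

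Myh11, the smooth muscle myosin heavy chain, had 1187, 1668 and 2450.1 CPM in treated and 3554, 3942 and 5555 CPM in PBS knockout aorta, against 89.1, 841 and 1013 CPM in treated and 2979.9, 4769 and 6092 CPM in PBS wild type aorta. The treated genotypes again did not overlap. It fell in both, with log2 changes of -1.27 in knockout (adjusted p = 0.0342) and -2.77 in wild type aorta (adjusted p = 4.64e-05), and its interaction value was 1.50 (SE 0.53, adjusted p = 0.226).

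Smtn, the actin-binding protein smoothelin (chr11:3517523-3540612, minus strand), had the smallest unadjusted p of the list. It had 414, 512 and 580.2 CPM in treated and 698, 769 and 1150.4 CPM in PBS knockout aorta, against 122, 236 and 296 CPM in treated and 743, 983 and 1338 CPM in PBS wild type aorta. Each treated group lay wholly below its own PBS group, and the treated knockout libraries lay wholly above the treated wild type libraries. The interaction value was 1.49 (SE 0.31, adjusted p = 0.111). Smtn was 1.26 higher in knockout aorta under Ang-II/BAPN (adjusted p = 0.00572).

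Of the rest of the list, Lmod1, the actin nucleator leiomodin, had a value of 1.61 (SE 0.44, adjusted p = 0.140). Myl9, the regulatory light chain, had 1.45, Cnn1 (calponin) 1.38, Tagln (transgelin) 1.26, and Mylk, the kinase that phosphorylates the light chain, 1.08. Ppp1r14a, an inhibitor of myosin phosphatase, had the highest value of the list at 2.02 (adjusted p = 0.184). The exceptions were Des (desmin) at -0.04 and Casq2 (a calcium-binding protein of the reticulum) at 0.11. Des fell in both genotypes, with log2 changes of -1.39 in knockout (adjusted p = 0.00393) and -1.35 in wild type aorta (adjusted p = 0.00234). Treated knockout libraries lay wholly above treated wild type libraries for 10 of the 19 genes, where this held for 592 of all tested genes (2.4%), and wholly below for 0, where this held for 186 of all (0.755%).

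**Figure D2:**
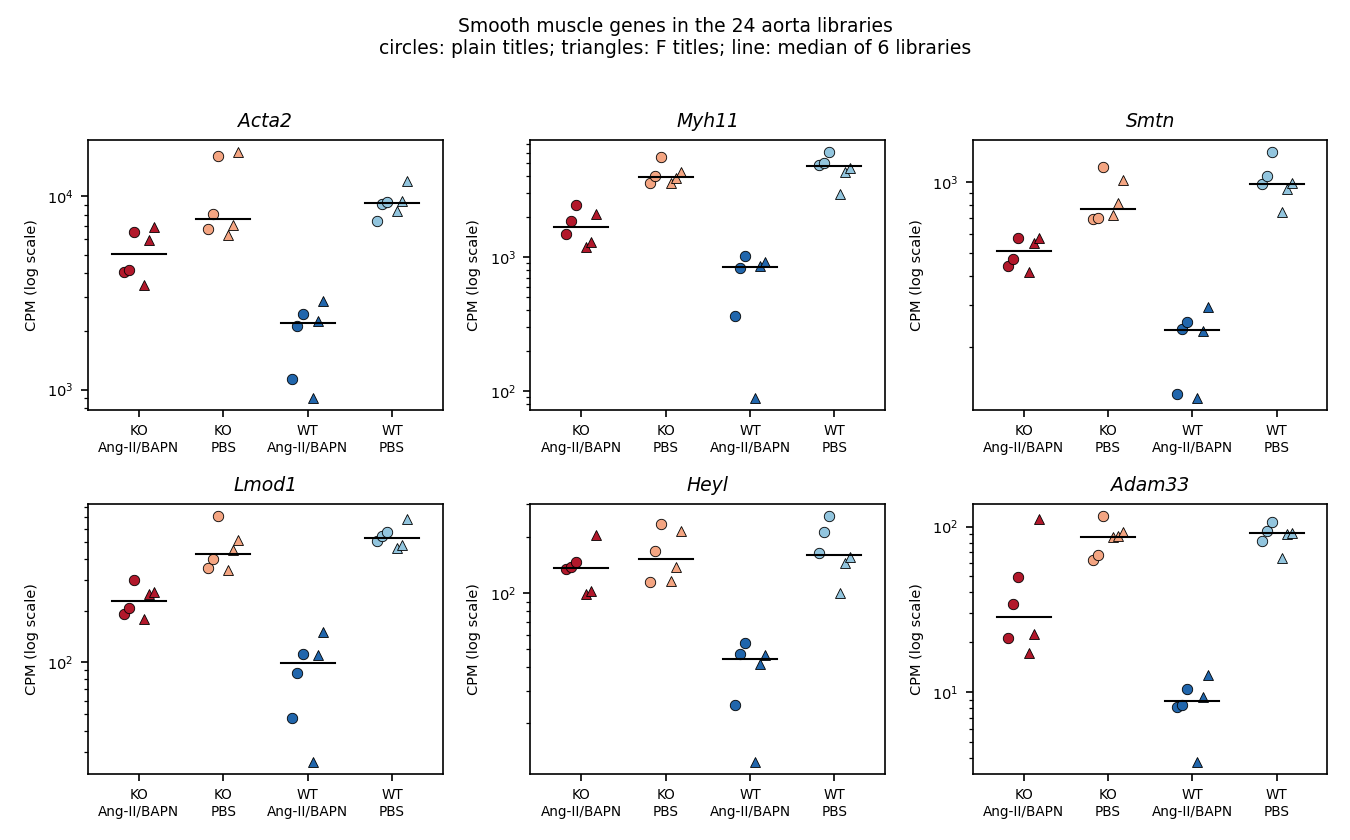
Levels of 6 genes in the 24 libraries in CPM on a log axis, with knockout groups left of wild type groups and a line at the median of 6 libraries. The treated wild type libraries are the lowest group in each panel, and the treated knockout libraries lie between them and the PBS groups or level with the PBS groups.

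The summed level of the 19 contractile genes was 11013 to 19701 CPM in treated and 21579 to 41638 CPM in PBS knockout aorta, against 2772 to 9465 CPM in treated and 22878 to 30228 CPM in PBS wild type aorta. In treated wild type aorta the 4 libraries with intestinal transcripts had 4574 to 8500.5 CPM, and the 2 without them lay on either side, with 2772 CPM in replicate 1 and 9465 CPM in replicate 3 of the F set. All 6 lay below the treated knockout range. Treated knockout libraries with abundant pancreas transcripts had 12922 to 19701 CPM, and those without them 11013 to 18799 CPM. Without the F library that had intestinal transcripts, the F set alone gave a list median of 1.41. Summed macrophage markers were 1323 to 2627 CPM in treated knockout and 1374 to 6110.1 CPM in treated wild type aorta, with the highest value in that replicate 1. The part of other cells in the contractile difference was not tested, and in bulk RNA fewer smooth muscle cells and less RNA per cell cannot be told apart.

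The promoter of Myl9 was read because contractile genes are classical targets of serum response factor, which binds the CArG box. Of the 19 genes, 16 had an entry among RefSeq's GRCm38.p6 promoters (250 bases before to 50 after the start), and the CArG box was found on either strand in 1 of the 16. It is present in 1.63% of the 32851 windows of all genes. The gene count takes any window of a gene, while this share is per window. The 250 bases before the start of Myl9 (chr2:156775214-156775463, plus strand) are shown with the box, 161 bases before the start, in capitals.
Myl9: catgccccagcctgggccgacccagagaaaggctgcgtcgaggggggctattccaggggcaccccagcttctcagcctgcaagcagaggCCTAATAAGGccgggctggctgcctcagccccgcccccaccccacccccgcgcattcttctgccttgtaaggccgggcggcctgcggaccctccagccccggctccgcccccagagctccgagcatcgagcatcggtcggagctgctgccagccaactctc

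Regulators of smooth muscle identity had a smaller median than the contractile genes. All 10 were positive (48.2% of all genes were), and 6 of them in both title sets (26% of all genes were). Their median was 0.48, with 0.96 in the plain and 0.38 in the F set. At an unadjusted p under 0.05, 4 were positive, where 6.23% of all genes were. Under treatment 0 of the 10 fell in knockout aorta, where 4.4% of all tested genes did. In wild type aorta 5 fell, where 11.5% of all tested genes did. Myocd (myocardin) had an interaction value of 0.64 (SE 0.67) and Srf (serum response factor) 0.31 (SE 0.24). Tbx18, a mural cell transcription factor, had 1.09 (adjusted p = 0.200), and Gata6, a factor of differentiated smooth muscle, 0.77 (adjusted p = 0.208). Klf4, a repressor of contractile genes, had 0.25 (SE 0.27).

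Heyl, a transcription factor induced by Notch signalling (chr4:123233556-123249875, plus strand), had the highest value of the regulators. Its lowest, median and highest levels were 98.6, 136 and 204 CPM in treated and 115, 153 and 235 CPM in PBS knockout aorta, against 12.5, 44.2 and 53.9 CPM in treated and 99.9, 160.3 and 259.6 CPM in PBS wild type aorta. Treated knockout libraries overlapped both PBS groups, and treated wild type libraries lay below every other library. The interaction value was 1.90 (SE 0.42, adjusted p = 0.111). Heyl fell by 2.16 in wild type aorta (adjusted p = 3.96e-05) and had a change of -0.26 in knockout aorta (adjusted p = 0.675).

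The 12 genes named for the highest values with the same sign in both title sets include Heyl and other muscle genes. Fbxl22, an F-box protein of striated muscle sarcomeres, had 14.4, 25.4 and 31.1 CPM in treated and 37.9, 49.5 and 91.3 CPM in PBS knockout aorta, against 1.28, 5.23 and 9.78 CPM in treated and 44.9, 65.4 and 77.7 CPM in PBS wild type aorta. It fell in both genotypes, with log2 changes of -1.20 in knockout (adjusted p = 0.0361) and -3.58 in wild type aorta (adjusted p = 3.90e-06). The treated genotypes did not overlap, and its interaction value was 2.37 (SE 0.51, adjusted p = 0.111).

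Mylk2, a myosin light chain kinase best known from skeletal muscle, had 22.0, 30.3 and 74.0 CPM in treated and 26.6, 39.8 and 59.3 CPM in PBS knockout aorta, against 2.30, 9.08 and 17.2 CPM in treated and 25.1, 58.3 and 81.1 CPM in PBS wild type aorta. In knockout aorta the treated and PBS libraries overlapped, and in wild type aorta they did not. Its interaction value was 2.41 (SE 0.51). Adam33, a membrane metalloprotease, had 17.1, 28.2 and 111 CPM in treated and 62.4, 86.8 and 116 CPM in PBS knockout aorta, against 3.80, 8.81 and 12.7 CPM in treated and 64.7, 91.1 and 107 CPM in PBS wild type aorta. Its value was 2.30 (SE 0.52), and 1 treated knockout library lay at the PBS level.

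The other named genes with high values were lower in abundance. Smim5, a small membrane protein gene, had 2.70 with medians of 6.24 CPM in treated and 16.0 CPM in PBS knockout aorta, against 1.77 CPM in treated and 19.4 CPM in PBS wild type aorta. Gkn3, a gastrokine that also marks arterial endothelium in mouse brain, had 2.53, and fell in both genotypes (-2.68 in knockout and -5.21 in wild type aorta). Fgf16, a fibroblast growth factor, had 2.22 and rose in knockout aorta (1.36, adjusted p = 0.0223). Lefty1, a secreted antagonist of Nodal, had 1.92, and Lratd1 1.91. The adjusted p of these 5 genes was 0.111 each by edgeR, and DESeq2 called all 12 genes named at this end. All 12 were picked by p and value from the same counts, so these calls are not separate evidence.

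Further genes with small unadjusted p were chosen after their values were seen. Cavin1, the coat protein of caveolae, had 559, 643 and 714 CPM in treated and 868, 933 and 1133 CPM in PBS knockout aorta, against 294, 302 and 436 CPM in treated and 831, 1014 and 1159 CPM in PBS wild type aorta. It fell in both genotypes without overlap between any treated and PBS group, and its value was 0.98 (SE 0.20, adjusted p = 0.111). Speg, a kinase of muscle, had 1.78 (SE 0.40), Dmpk, the myotonic dystrophy protein kinase, 1.71 (SE 0.38), and Kank2, an adaptor of the cell cortex, 1.11 (SE 0.24).

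Circadian clock genes had interaction values of another make-up: the genotypes stood further apart under PBS than under Ang-II/BAPN, in median. The clock is a feedback loop in which Clock and Arntl drive the Per and Cry repressors and the Nr1d receptors through E-boxes, while Dbp, Tef and Hlf act on D-boxes against the repressor Nfil3. Of 16 listed genes, 11 had positive values, all of them in both title sets (26% of all genes were positive in both), with a median of 1.07. At an unadjusted p under 0.05, 6 were positive and 2 negative, and DESeq2 called Per2, Nr1d1, Dbp, Ciart and Bhlhe41 with positive and Nfil3 with a negative value. In wild type aorta 9 of the 16 fell and 3 rose, and in knockout aorta 0 did either. The median difference between genotypes was -0.07 under Ang-II/BAPN and -1.44 under PBS, with 0 of the 16 called under either.

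Dbp, an output transcription factor of the clock (chr7:45705088-45710203, plus strand), had the highest of the 12 named values. Its lowest, median and highest levels were 6.06, 12.4 and 30.1 CPM in treated and 5.48, 15.9 and 81.7 CPM in PBS knockout aorta, against 3.56, 6.90 and 29.5 CPM in treated and 11.0, 219 and 339.9 CPM in PBS wild type aorta. PBS wild type libraries had the widest spread and overlapped every other group. The interaction value was 3.90 (SE 0.82, adjusted p = 0.111), with 4.98 in the plain and 2.82 in the F set. Dbp fell by 4.22 in wild type aorta (adjusted p = 7.79e-05), and the difference between PBS groups was -3.35 (adjusted p = 0.180).

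Ciart, a repressor of the Clock and Arntl pair, had 0.551, 1.23 and 2.17 CPM in treated and 0.648, 1.03 and 2.28 CPM in PBS knockout aorta, against 0.698, 0.895 and 8.54 CPM in treated and 1.31, 16.0 and 23.1 CPM in PBS wild type aorta. All 4 groups overlapped. Its value was 2.97 (SE 0.82, adjusted p = 0.146). Nr1d1, a nuclear receptor that represses Arntl, had 31.4, 52.2 and 101 CPM in treated and 34.4, 79.4 and 229.9 CPM in PBS knockout aorta, against 10.9, 31.8 and 120.3 CPM in treated and 156, 249 and 311 CPM in PBS wild type aorta. PBS wild type libraries lay above all treated libraries of both genotypes and overlapped PBS knockout libraries. Nr1d1 had a value of 2.18 (SE 0.58, adjusted p = 0.132).

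Bhlhe41, a repressor that competes for E-boxes, had 9.29, 13.5 and 20.2 CPM in treated and 9.73, 13.5 and 19.3 CPM in PBS knockout aorta, against 7.74, 8.55 and 19.1 CPM in treated and 10.5, 42.5 and 65.5 CPM in PBS wild type aorta. Its value was 1.84 (SE 0.43, adjusted p = 0.111). All 4 groups of Bhlhe41 overlapped. Genes of the opposite phase had the opposite sign. Arntl, the partner of Clock, had -1.38 (SE 0.52, adjusted p = 0.263) and rose by 1.90 in wild type aorta (adjusted p = 0.00110). Nfil3 had -1.67 (SE 0.41, adjusted p = 0.121) and rose by 2.01 in wild type aorta (adjusted p = 7.57e-05). Clock itself had -0.43 and Cry1 -0.11.

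**Figure D3:**
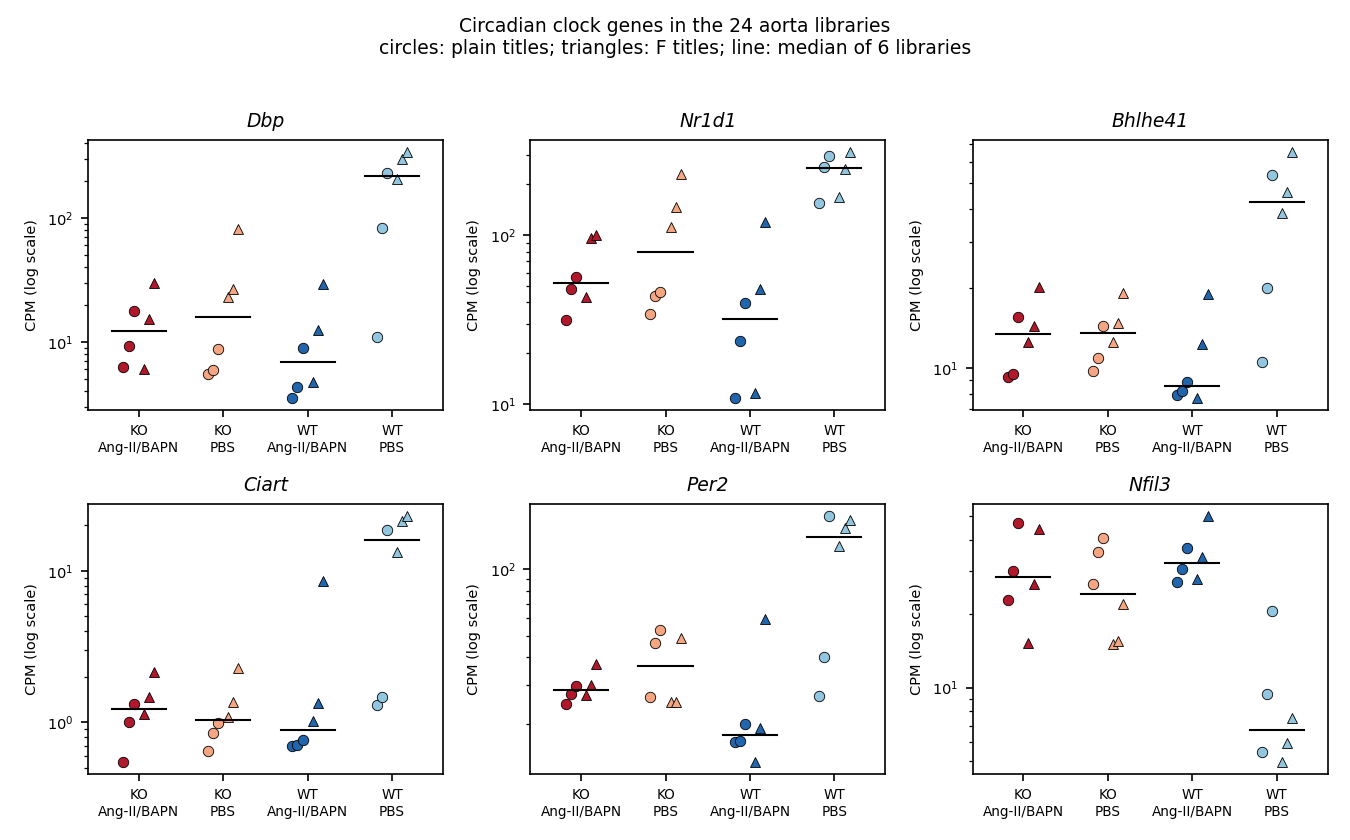
Levels of 6 clock genes in the 24 libraries in CPM on a log axis, with knockout groups left of wild type groups and a line at the median of 6 libraries. Medians of Dbp are 12.4 CPM in treated and 15.9 CPM in PBS knockout aorta, against 6.90 CPM in treated and 219 CPM in PBS wild type aorta, and Nfil3 runs the other way.

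Clock transcripts swing with the time of day, and the hour of collection is not given in the labels, so hour and group cannot be told apart. Single libraries differed within groups: the summed level of the 16 genes was 436 to 646 CPM in treated and 379.5 to 1003 CPM in PBS knockout aorta, against 290.3 to 1106 CPM in treated and 620.1 to 1797 CPM in PBS wild type aorta. The treated wild type library with the highest sum, 1106 CPM, was F replicate 2, which also carried intestinal transcripts, and the F set without it gave a median of 1.84. Without replicate 1 of the PBS wild type plain set, the library with the highest sum of all, the median over both sets was 0.57.

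E-boxes and D-boxes are shown for 3 clock genes with positive values, because both elements time transcription in the loop. Of the 16 genes, 15 had an entry among the RefSeq promoters. The E-box CACGTG was present in 5 of the 15 (Per1, Cry1, Tef, Ciart and Bhlhe41) and in 7.15% of the 32851 windows of all genes, searched on both strands. The D-box TTATGNAA was present in 2 of the 15 (Per1 and Per3) and in 3.38% of all windows. A gene was counted when any of its windows held the element, while the shares of all are per window, so the measures differ. The 250 bases before the start are given for Ciart (chr3:95882229-95882478, minus strand), Bhlhe41 (chr6:145865421-145865670, minus strand) and Per3 (chr4:151044666-151044915, minus strand) in build GRCm38.p6, with E-boxes in capitals for Ciart and Bhlhe41 and D-boxes in capitals for Per3. A match describes letters in this window and not a bound site.
Ciart: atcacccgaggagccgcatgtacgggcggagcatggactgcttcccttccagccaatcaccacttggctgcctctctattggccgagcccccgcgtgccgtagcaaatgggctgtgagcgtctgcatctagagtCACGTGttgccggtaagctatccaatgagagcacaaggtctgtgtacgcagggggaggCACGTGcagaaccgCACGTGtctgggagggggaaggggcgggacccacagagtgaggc
Bhlhe41: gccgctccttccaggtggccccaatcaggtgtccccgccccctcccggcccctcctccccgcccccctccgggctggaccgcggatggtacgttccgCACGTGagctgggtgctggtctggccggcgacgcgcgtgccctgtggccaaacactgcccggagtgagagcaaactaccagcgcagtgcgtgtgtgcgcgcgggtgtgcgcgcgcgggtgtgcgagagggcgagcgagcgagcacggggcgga
Per3: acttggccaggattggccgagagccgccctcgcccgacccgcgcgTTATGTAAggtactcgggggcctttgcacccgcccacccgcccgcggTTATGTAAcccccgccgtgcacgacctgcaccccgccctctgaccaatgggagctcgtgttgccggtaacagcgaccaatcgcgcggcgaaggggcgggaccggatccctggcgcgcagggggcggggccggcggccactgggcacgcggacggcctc
Ciart holds 3 E-boxes within 116 bases of its start and had a value of 2.97, Bhlhe41 holds 1 and had 1.84, and Per3 holds 2 D-boxes and had 1.42 (SE 0.76, adjusted p = 0.454). Of the other genes with an E-box, Per1 had 1.12, Tef 1.22 and Cry1 -0.11. Dbp and Nr1d1, with values of 3.90 and 2.18, have no E-box in these windows.

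Matrix genes split by kind. Most collagen genes rose in both genotypes, and their interaction values lay on both sides of 0. Col1a1, the main chain of collagen I, had 11316 ± 3684 CPM in treated and 3878 ± 1005 CPM in PBS knockout aorta, against 8159.9 ± 1853 CPM in treated and 2841 ± 1698 CPM in PBS wild type aorta (mean ± SD, n = 6 each). Its interaction value was -0.04, with a 95% confidence interval of -0.88 to 0.80. The 17 collagen genes had a median of 0.04, with 10 positive (48.2% of all genes were), and the sign of that median turned in 10 of 39 alternatives. Treatment raised 10 of the 17 in knockout and 9 in wild type aorta. The 3 collagen VI chains had 0.54 for Col6a1, 0.72 for Col6a2 and 0.78 for Col6a3, and Col6a3 was the 1 collagen gene at an unadjusted p under 0.05 (adjusted p = 0.369).

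Elastic fibre genes had a median of 0.30, with 13 of 19 positive and 5 of them at an unadjusted p under 0.05. Under Ang-II/BAPN 6 of the 19 were higher in knockout aorta and 0 lower. Ltbp4, which binds latent TGF-β and assists elastin assembly, had 1.56 (SE 0.43, adjusted p = 0.146) and fell by 2.03 in wild type aorta (adjusted p = 0.000102). Fbln5 (fibulin 5, which organises elastin) had 1.14, Mfap4, a protein of elastin microfibrils, 1.41, and Loxl1, of the enzyme family that BAPN inhibits, 1.14. Lox had -0.70, Loxl2 -0.48 and Fbn1 (fibrillin 1) 0.14. Eln (elastin) had 10179.8 to 15259 CPM in treated knockout and 1176 to 6365 CPM in treated wild type aorta, which did not overlap. The same held for 4 of the 19 genes, Eln among them, and for 592 of all tested genes (2.4%). Under PBS the genotypes overlapped for Eln. The interaction value of Eln was 0.67 (SE 0.54), from 1.38 in the plain and -0.04 in the F set. It was 0.28 without replicate 1 of the PBS wild type F set.

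Ccn5, a matricellular protein of smooth muscle (chr2:163820861-163833146, plus strand), ranked among the smallest unadjusted p of all genes and was chosen after its values were seen. Its lowest, median and highest levels were 321, 420.2 and 763 CPM in treated and 62.9, 92.4 and 118 CPM in PBS knockout aorta, against 68.3, 145 and 199 CPM in treated and 56.8, 95.1 and 115 CPM in PBS wild type aorta. Every treated knockout library lay above every other library. It rose by 2.32 in knockout aorta (adjusted p = 1.44e-05), had a change of 0.66 in wild type aorta (adjusted p = 0.0554), and had an interaction value of 1.66 (SE 0.35, adjusted p = 0.111). Among its relatives, Ccn1 had -0.43, Ccn2 0.18 and Ccn4 -0.32.

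Fibroblast markers also leaned positive. Of 12 fibroblast markers 11 were positive, with a median of 0.63, and 6 rose in knockout aorta against 3 that rose and 2 that fell in wild type aorta. Dpt (dermatopontin, a matrix protein of adventitial fibroblasts) had 348, 463 and 1456 CPM in treated and 186, 268 and 334 CPM in PBS knockout aorta, against 103, 152 and 237 CPM in treated and 137, 189 and 261 CPM in PBS wild type aorta. Treated knockout libraries lay above every other library. Its value was 1.50 (SE 0.41, adjusted p = 0.143), and Pdgfra, the receptor that marks fibroblasts, had 0.16 (SE 0.39). Prelp, one of the 12 genes named for the highest values, is a leucine-rich proteoglycan that anchors basement membranes. It had 325, 425 and 792 CPM in treated and 227, 282 and 356 CPM in PBS knockout aorta, against 72.2, 195 and 327 CPM in treated and 262, 376 and 577 CPM in PBS wild type aorta. The treated genotypes overlapped by a narrow margin. Its value was 1.82 (SE 0.40, adjusted p = 0.111), and it fell by 1.03 in wild type aorta (adjusted p = 0.0119).

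Mgp (matrix Gla protein), an inhibitor of calcification made by smooth muscle, had 1.52 (SE 0.40, adjusted p = 0.132), rising in knockout aorta by 1.19 (adjusted p = 0.00921) and at -0.33 in wild type aorta (adjusted p = 0.427). The osteochondrogenic factors Runx2 and Sox9 rose in both genotypes and had values of -0.06 and -0.27. Spp1 (osteopontin) rose in both as well, with a value of -2.26 (SE 1.01, adjusted p = 0.351). Of 21 matricellular genes tested (4 of the 25 names were not in the table), 14 were positive, with a median of 0.17, which turned to -0.10 without replicate 1 of the PBS wild type F set.

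Matrix proteases leaned the other way. Of 19 genes 14 were negative, where 51.8% of all genes were, with a median of -0.29, 6 negative and 1 positive at an unadjusted p under 0.05. Treatment raised 17 of them in knockout and 15 in wild type aorta. Mmp14, a membrane-bound collagenase, had -0.88 (adjusted p = 0.265), Adamts4, an aggrecanase, -1.94 (adjusted p = 0.354), and Ctss, a macrophage elastase, -1.22 (adjusted p = 0.300). The gelatinase Mmp2 had -0.17 and the macrophage elastase Mmp12 -0.07. Adamts2, which trims procollagen, was the positive one at 0.80.

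Of 19 TGF-β and BMP pathway genes, 16 were positive, with a median of 0.39 and 5 at an unadjusted p under 0.05. Treatment raised 3 and lowered 1 in knockout aorta, and raised 3 and lowered 7 in wild type aorta. Among ligands, Bmp4 had 1.17 (adjusted p = 0.335), Tgfb3 0.65, Tgfb2 0.40 and Tgfb1 -0.16. The receptors Tgfbr1, Tgfbr2 and Tgfbr3 had values of 0.16, 0.03 and 0.07. The inhibitory Smads had 1.17 for Smad6 (adjusted p = 0.161) and 0.89 for Smad7 (adjusted p = 0.143). The BMP targets Id1 and Id3 had 1.11 and 1.11. Pmepa1, a TGF-β-induced feedback inhibitor chosen after its values were seen, had 1.06 (SE 0.24, adjusted p = 0.111).

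Wnt genes were listed because Cthrc1 has been linked to noncanonical Wnt signalling through planar polarity. The 15 noncanonical genes had a median of 0.08 and the 16 canonical genes 0.16, each with 10 positive. Wnt5a, the main noncanonical ligand, had 1.04 (SE 0.42, adjusted p = 0.303), its receptor Ror2 0.08, and the coreceptor Ptk7 -1.50 (adjusted p = 0.186). Rhoa and Rac1, the effectors, had 0.05 and -0.16. Fzd2, a receptor chosen after its values were seen, had 48.5, 62.4 and 125 CPM in treated and 55.4, 69.4 and 95.4 CPM in PBS knockout aorta, against 23.5, 33.5 and 35.6 CPM in treated and 66.7, 76.1 and 85.5 CPM in PBS wild type aorta. Treated wild type libraries lay below every other library, and the value was 1.20 (SE 0.23, adjusted p = 0.111). In the canonical list Nkd1, an inhibitor and target, had 1.30 (adjusted p = 0.128), and the transcription factors Lef1 and Tcf7, which T cells also express, -1.79 and -1.83.

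**Figure D4:**
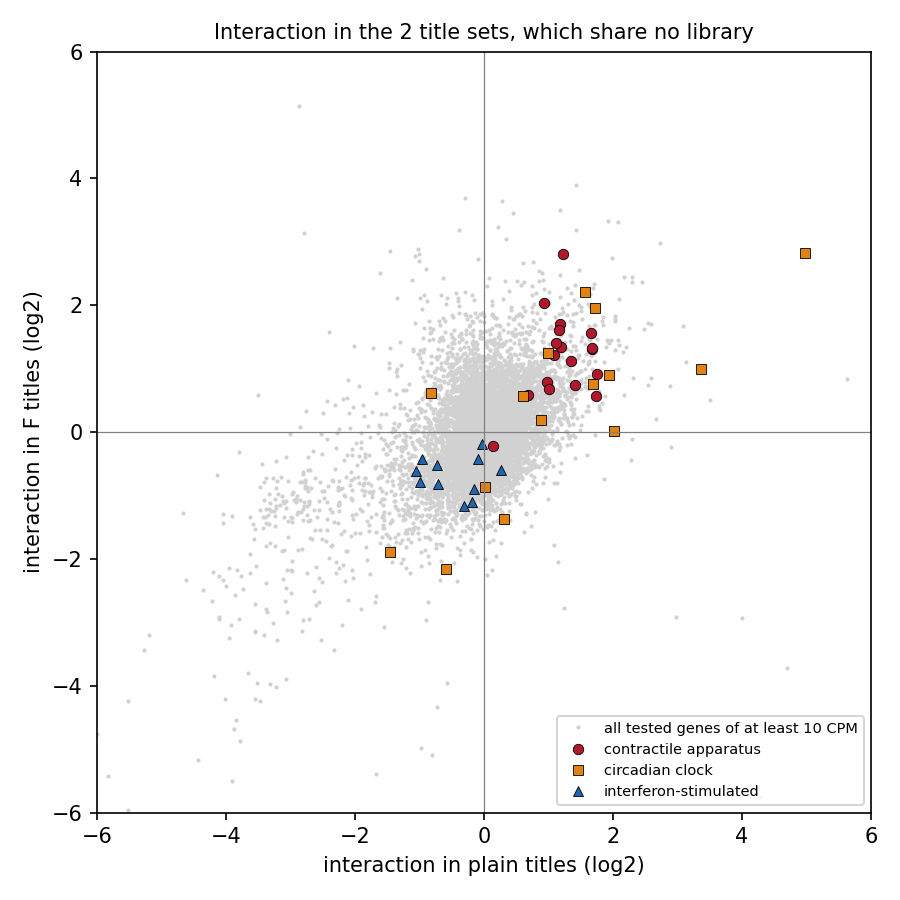
Interaction value in the plain titles (x axis, log2) against that in the F titles (y axis, log2) for 10373 genes of at least 10 CPM, with 18 contractile, 15 clock and 11 interferon-stimulated genes marked. Most contractile and clock genes are positive on both axes and most interferon-stimulated genes negative on both, and 21 genes outside these lists lie beyond the axes at 6.

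The title sets gave separate estimates of the interaction, since they share no library. Over the 10373 genes of at least 10 CPM, the values correlated at a Pearson r of 0.43 and a Spearman rho of 0.36 across genes, which are not independent replicates, and 59.1% had the same sign. Over all 24623 genes r was 0.14, and 57.2% had the same sign. Of the 608 genes of at least 10 CPM with an unadjusted p under 0.05 in the plain set, 573 (94.2%) had the same sign in the F set, and of 931 such genes chosen in the F set 775 (83.2%) had the same sign in the plain set. Without the limit of 10 CPM these shares were 80% (1332 of 1665 genes) and 67.7% (1730 of 2557). Neither set called a gene by edgeR (0%), while 1665 genes of the plain set (6.76%) and 2557 of the F set (10.4%) had an unadjusted p under 0.05. A test of the difference between the sets also called 0, with 853 genes (3.46%) at an unadjusted p under 0.05.

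Macrophage and inflammatory genes rose in both genotypes. Of 18 macrophage markers 16 rose in knockout and 17 in wild type aorta, with median responses of 2.69 and 3.30, and 14 had a negative interaction value (median -0.49), with 0 at an unadjusted p under 0.05. Without replicate 1 of the treated wild type F set the macrophage median was -0.15. Cd68, a macrophage lysosomal protein, had -0.64 (SE 0.43) and Adgre1, which encodes F4/80, -0.43 (SE 0.61). Of 19 cytokines and chemokines 17 rose in knockout and 18 in wild type aorta, with 16 negative values and a median of -0.73. That median was -0.34 without replicate 3 of the PBS knockout plain set and -3.30 with covariates for intestine, liver and kidney markers, a fit added after seeing the data in which Il6, Il11, Lif and Osm passed the test. Intestine and liver markers were high mainly in treated wild type libraries, so that fit can hardly separate them from this group. Il1b had -1.07 (SE 1.02), Il6 -1.21 (SE 1.32), Ccl2 -0.87 (SE 0.83), and Osm (oncostatin M), the 1 of the list at an unadjusted p under 0.05, -2.78 (adjusted p = 0.256). The neutrophil genes S100a8 and S100a9 had -0.42 and -0.21.

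All 16 listed interferon-stimulated genes had negative values (51.8% of all genes did), with medians of -0.46 in the plain and -0.69 in the F set, but 1 reached an unadjusted p under 0.05. Treatment raised 5 in knockout aorta (median 0.88) and 15 in wild type aorta (median 1.65). Ifi44, the gene with the smallest p of the list, had 2.68, 6.59 and 8.76 CPM in treated and 3.23, 4.40 and 7.16 CPM in PBS knockout aorta, against 5.14, 12.3 and 23.2 CPM in treated and 1.69, 2.94 and 6.23 CPM in PBS wild type aorta. All 4 groups overlapped, and the value was -1.63 (SE 0.50, adjusted p = 0.180). Ifit1, which binds viral RNA, had -0.77 (SE 0.51), Isg15, a ubiquitin-like modifier, -0.83 (SE 0.62), and the transcription factor Irf7 -0.62.

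Markers of B and plasma cells had the lowest median of the immune lists, at -3.22. All 10 were negative in both title sets (31.2% of all genes were), and all 10 had an unadjusted p under 0.05 (6.49% of all genes did, with a negative value). They rose in wild type aorta (10 of 10, median 2.94) and 0 of them changed in knockout aorta (median -0.26). Ms4a1, which encodes CD20 and was chosen after its values were seen, had 0.311, 0.685 and 1.11 CPM in treated and 0.241, 0.405 and 2.91 CPM in PBS knockout aorta, against 0.476, 5.17 and 34.2 CPM in treated and 0.194, 0.504 and 2.06 CPM in PBS wild type aorta. The ranges of all groups overlapped, and the value was -4.47 (SE 1.22, adjusted p = 0.142). Cd79a, part of the B cell receptor, had -3.21 (adjusted p = 0.193).

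The B cell signal came from some of the treated wild type libraries. Summed over the 10 markers it was 483, 23.1 and 40.6 CPM in the F set and 436, 81.6 and 193 CPM in the plain set of treated wild type aorta. The other groups spanned 29.9 to 64.2 CPM in treated knockout, 16.9 to 47.1 CPM in PBS knockout and 12.4 to 43.2 CPM in PBS wild type aorta. Treated knockout and wild type libraries overlapped. Without replicate 1 of the treated wild type F set the median of the list was -1.90, and without any other single library it was -2.59 or lower. Of the libraries rich in B cell transcripts, 3 also held intestinal transcripts, whose part in this result was not tested. T and NK cell markers were negative in 12 of 12, with a median of -1.67, and 10 rose in wild type against 1 in knockout aorta. Cd3e, a chain of the T cell receptor complex, had -1.52 (SE 0.76), from -3.18 in the plain and 0.14 in the F set.

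**Figure D5:**
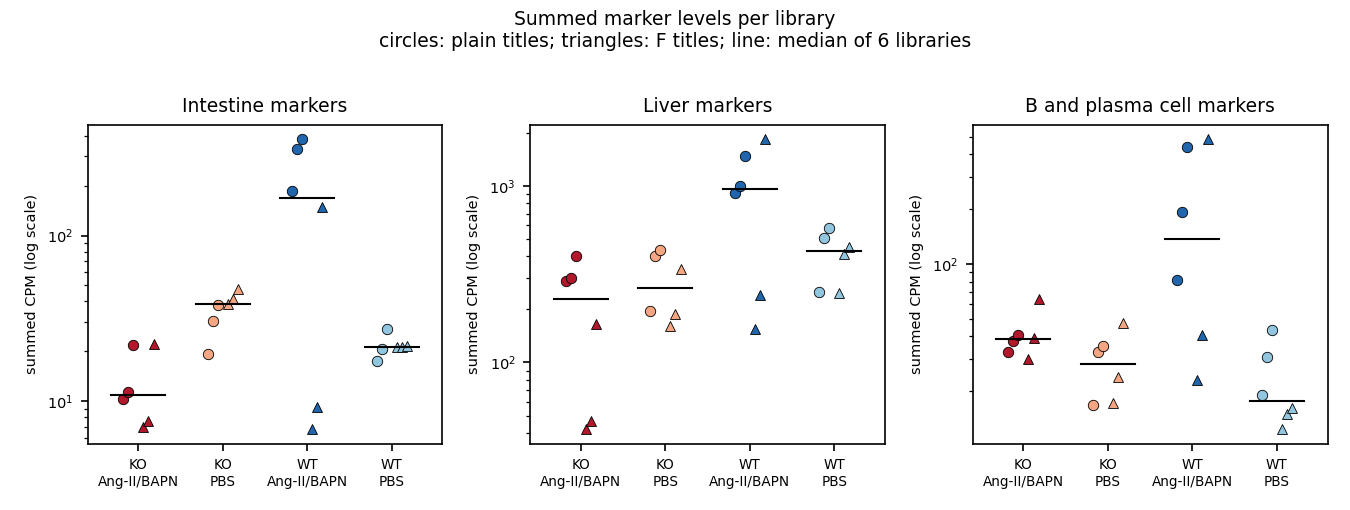
Summed CPM (log axis) of 11 intestine markers, 6 liver markers and 10 B and plasma cell markers in each of the 24 libraries, with knockout groups left of wild type groups and a line at the median of 6 libraries. Of the treated wild type libraries, 4 lie above every other library for intestine and liver markers, and the other 2 do not.

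Intestine and liver markers had the lowest medians of all lists, at -9.41 and -5.28, and were high in 4 treated wild type libraries. The 11 intestine markers summed to 334, 381 and 187 CPM in the plain and to 9.20, 149 and 6.78 CPM in the F set of treated wild type aorta. They summed to 7.04 to 22.1 CPM in treated knockout, 19.2 to 47.6 CPM in PBS knockout and 17.5 to 27.4 CPM in PBS wild type aorta. Lypd8, a protein of the colon epithelium, had the lowest value of the 12 genes named at that end. It was at 41.9, 50.8 and 32.5 CPM in the plain and at 0.0586, 20.0 and 0.168 CPM in the F set of treated wild type aorta, and at 0 in every PBS wild type library. In knockout aorta it reached 0.155 CPM in treated and 5.55 CPM in PBS libraries. Car1 (carbonic anhydrase 1) and Agr2, a protein of secretory epithelium, followed the same libraries, with medians of 30.9 CPM for Car1 and 11.9 CPM for Agr2 in treated wild type aorta. Fitted fold changes are not given for these genes, since they depend on how libraries at 0 are handled.

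Liver genes named at that end included Apoa2 (an apolipoprotein), Serpina1b and Serpina1c (serum protease inhibitors), Hpd (an enzyme of tyrosine breakdown) and Cyp3a11 (a cytochrome). Apoa2 had 0.157, 0.293 and 0.645 CPM in treated and 1.06, 7.73 and 10.5 CPM in PBS knockout aorta, against 0.249, 6.03 and 9.36 CPM in treated and 0.112, 0.794 and 2.10 CPM in PBS wild type aorta. Its high treated wild type libraries were the 4 with intestinal transcripts, and PBS knockout libraries reached the same level. It fell by 4.17 in knockout aorta (adjusted p = 0.00243) and rose by 2.37 in wild type aorta (adjusted p = 0.0290), and its interaction value was -6.54 (SE 1.13, adjusted p = 0.111). Serpina1b had -3.77 (SE 0.87). The serpin copies are nearly identical in sequence, so their counts may be split between them. Kidney markers also had negative values in 8 of 8, with a median of -3.02, and their sum was 4.51 to 652 CPM in treated and 92.8 to 2659 CPM in PBS knockout aorta, against 17.5 to 3501 CPM in treated and 64.2 to 627 CPM in PBS wild type aorta. The kidney median rests on 1 library: without replicate 2 of the treated wild type plain set, which had the highest sum, it was -0.07. Prom1 had -3.30 (SE 0.76) and Myo5b, a motor of epithelial membrane traffic, -2.82 (SE 0.67).

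Pancreas markers were high in treated knockout and not in treated wild type libraries. Their 6 genes summed to 2248, 2868 and 299.95 CPM in the plain and to 2.59, 6.999 and 6.84 CPM in the F set of treated knockout aorta, and to 2.996 to 252 CPM in PBS knockout aorta. They summed to 4.26 to 13.8 CPM in treated and 2.23 to 7.71 CPM in PBS wild type aorta. Treated knockout libraries overlapped treated wild type libraries, and the high ones were the 3 of the plain set. Of the PBS knockout libraries, replicate 3 of each set stood high. The median interaction was -2.58, from 1.39 in the plain and -7.01 in the F set, and its sign turned in 8 of 39 alternatives. It was 1.53 without replicate 3 of the PBS knockout plain set and 0.36 without replicate 3 of the PBS knockout F set.

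Ralgps2 and Igfbp3 were also among the 12 genes named for the lowest values. Both stood above every PBS wild type library in all 6 treated wild type libraries. This also held for Lypd8, and for 1708 of all tested genes (6.94%). DESeq2 called all 12 genes named at this end, again after a choice by p and value from the same counts. Ralgps2, an exchange factor for Ral (chr1:156804166-156939626, minus strand), had lowest, median and highest levels of 2.91, 5.59 and 7.58 CPM in treated and 3.94, 5.97 and 12.1 CPM in PBS knockout aorta, against 11.4, 14.9 and 28.8 CPM in treated and 2.44, 4.99 and 5.96 CPM in PBS wild type aorta. All 6 treated wild type libraries lay above all 6 treated knockout libraries. It rose by 1.78 in wild type aorta (adjusted p = 0.000126), had -0.43 in knockout aorta (adjusted p = 0.370), and had an interaction value of -2.22 (SE 0.39, adjusted p = 0.111), with -2.17 in the plain and -2.26 in the F set.

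Igfbp3, which binds insulin-like growth factors in the circulation and in tissue, had 8.31, 21.9 and 43.5 CPM in treated and 18.4, 34.2 and 42.8 CPM in PBS knockout aorta, against 34.8, 65.0 and 130.0 CPM in treated and 18.3, 23.0 and 29.5 CPM in PBS wild type aorta. Treated wild type libraries lay above all PBS wild type libraries and overlapped both knockout groups. It rose by 1.64 in wild type aorta (adjusted p = 0.00114), and its value was -2.17 (SE 0.46, adjusted p = 0.111).

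As in every other list, the interaction test called 0 genes of the endothelial, cell cycle and metabolic lists. DESeq2 called 1 endothelial gene, Erg, and 0 genes of the cell cycle, respiratory chain and fatty acid oxidation lists. Endothelial markers had 0.00, with 6 of 12 positive, and Pecam1 and Cdh5, junction proteins of endothelium, had -0.04 and -0.17. Erg, an endothelial transcription factor, was the highest of them at 0.91 (SE 0.24, adjusted p = 0.139), and Emcn (endomucin, a sialomucin of veins and capillaries) the lowest at -0.74 (adjusted p = 0.231). Cell cycle genes rose in both genotypes (19 of 20 in knockout and 20 of 20 in wild type aorta), with a median interaction of -0.34 and -0.25 for Mki67, the proliferation marker. Without replicate 1 of the treated wild type F set the cell cycle median turned to 0.06, and with the marker covariates it was -1.55. The 14 nuclear genes of the respiratory chain had a median of -0.20. Fatty acid oxidation genes had -0.47. Under Ang-II/BAPN the test called 5 of these 12 lower in knockout aorta and 0 higher. The median difference between genotypes was -0.92 under Ang-II/BAPN and -0.45 under PBS, where 0 were called. Of 10 fat cell markers 4 were also lower and 0 higher in treated knockout aorta (median -0.64, and -0.53 under PBS with 0 called). They summed to 1877 to 3563 CPM in treated and 2862 to 5109 CPM in PBS knockout aorta, against 3498 to 5242 CPM in treated and 3741 to 7806 CPM in PBS wild type aorta. Their part in the fatty acid oxidation result was not tested.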

How the data were processed

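Total RNA of aorta was sequenced as stranded, paired-end 150-base libraries, per the labels' protocols. The authors deposited 1 table with raw read counts and FPKM values per gene. The submitters' processing notes name HISAT2, StringTie, DESeq2 and build GRCm38 without versions or roles, and the strand setting of the counting is not given in the sources used here, so that overlapping antisense genes cannot be told apart. Of the table's columns, 4 belong to 2 libraries without labels here and were not used.

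Libraries were grouped by genotype, treatment and title set from their titles (8 groups of 3). The deposited counts of 40141 genes were filtered with edgeR's filterByExpr (minimum count 10, minimum total 15), which left out 15518 genes. The remaining 24623 were scaled with TMM and fitted with edgeR 4.0.16 (R 4.3.3, quasi-likelihood test, 8 group means, Benjamini-Hochberg adjustment over all tested genes, threshold 0.05). The interaction averaged both title sets. The biological coefficient of variation was 57.0%, and every pair of replicate libraries differed by more than sampling noise. CPM of single genes include the scaling. Summed levels of gene lists and the library values of Rn7sk, Hbb-bs, Xist and Ddx3y do not. Log2 values of the fit use edgeR's default prior count. A prior count of 2 entered only the log2 CPM of single libraries, as used for correlations between libraries. The script was tested on simulated counts.

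Alternatives were DESeq2 1.42.0, limma 3.58.1 on log2(FPKM + 1) and log2(FPKM + 0.1) of the authors' FPKM values, other scalings, filters, group terms and covariates, a replicate block, and each library left out. The named genes are Cthrc1 and, among the 100 smallest p, the 12 highest and 12 lowest values of genes with a named symbol, a mean of at least 2 CPM and the same sign in both title sets. The first 2 tested genes of each of 40 gene lists are also named by rule, and every other gene was picked with its values in view. The comparison and the lists were chosen with earlier results of these data known. Results for some genes are not reported here.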

Additional observations from a re-analysis of the deposited data

How the results depend on the processing

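The count of 0 interaction genes depended on the tool and on single libraries. DESeq2 called 591 genes, and limma called 57 genes on log2(FPKM + 1) and 12 on log2(FPKM + 0.1). Covariates for summed intestine, liver and kidney markers, added after seeing the data, gave 387 genes. The intestine sum was 149 to 381 CPM in 4 treated wild type libraries and at most 47.6 CPM in every other library. That fit can therefore hardly separate the markers from this group. The value of Cpa1, for example, was 21.2 in that fit and -7.10 in the main one. Leaving out 1 library gave 0 to 89 genes, with 89 when replicate 3 of the treated wild type F set was left out, 3 without its replicate 1, and 1 without replicate 2 of the PBS knockout plain set. In the plain set alone DESeq2 called 75 genes, and leaving out 1 library gave 0 to 1, with 1 without replicate 2 of PBS wild type. In the F set alone DESeq2 called 114 genes, and leaving out 1 library gave 0 to 4, with 4 without replicate 3 and 1 without replicate 2 of treated wild type. The count was 0 under the other scaling, no filter, a minimum count of 50, a test against a fold of 2, no mitochondrial or ribosomal RNA, 4 group means, without the 5 libraries with Rn7sk above 2 CPM, and with Rn7sk as a covariate. The replicate block also gave 0 genes. Replicate numbers showed no sign of pairing in a check of deviations from group means. These correlated at -0.42 to 0.44 between same-numbered libraries, with 19 of 84 pairs over 0.1. Between libraries with other numbers they correlated at -0.46 to 0.47, with 47 of 168 pairs over 0.1.

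In all 39 alternatives the contractile, clock and B cell medians kept their sign. The contractile median ranged from 0.94 to 1.49, the clock median from 0.57 to 2.22, and the B and plasma cell median from -5.20 to -1.40. With 1 library left out, the medians ranged from 0.29 to 0.74 for smooth muscle regulators, from 0.32 to 0.91 for fibroblast markers, from 0.15 to 0.47 for TGF-β and BMP genes, from 0.18 to 0.42 for elastic fibre genes, and from -0.87 to -0.43 for interferon-stimulated genes. They ranged from -0.82 to -0.15 for macrophage markers, from -1.02 to -0.34 for cytokines, from -3.89 to -0.07 for kidney markers and from 0.01 to 0.27 for canonical Wnt genes. With the marker covariates the median was -1.98 for interferon-stimulated genes, with 12 lower at an unadjusted p under 0.05, and -3.30 for cytokines, with 14 lower. It was 1.58 for fibroblast markers, -1.18 for macrophage markers and -0.49 for kidney markers in that fit. The cause of the differences between tools was not tested.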

Other observations

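Some gene groups outside the account above held single genes of small unadjusted p. Of 12 genes of the endoplasmic reticulum stress response, Xbp1, a transcription factor that also drives plasma cell secretion, had an interaction value of -0.59 (SE 0.27, adjusted p = 0.351), and Dnajb9, a chaperone of the reticulum, -0.69 (SE 0.22, adjusted p = 0.191). Of 12 hypoxia and glycolysis genes, Bnip3, a mitophagy receptor, had -1.29 (SE 0.45, adjusted p = 0.223) and Egln3, an oxygen-sensing hydroxylase, -0.97 (SE 0.41, adjusted p = 0.314). Of 10 brown adipocyte genes, Prdm16, a regulator of brown fat identity, had 1.34 (SE 0.33, adjusted p = 0.121). DESeq2 called Dnajb9 and Prdm16 of these 5.

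Nnt, a mitochondrial transhydrogenase that is deleted in some laboratory strains, was looked at after its values were seen. It had 5.24, 8.22 and 18.4 CPM in treated and 7.50, 11.5 and 20.8 CPM in PBS knockout aorta, against 29.7, 33.1 and 51.7 CPM in treated and 13.9, 57.3 and 70.0 CPM in PBS wild type aorta (lowest, median and highest of 6). Its difference between genotypes was -1.84 under Ang-II/BAPN (adjusted p = 0.00938) and -1.89 under PBS (adjusted p = 0.200), and its interaction value was 0.05 (SE 0.51). The labels used here give no strain.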
